A study of Mus musculus with 6 samples.

Results

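The genes described here encode 10 enzymes and transporters that build the lipid and protein barrier of the outer epidermis: the lipoxygenases Aloxe3 and Alox12b, the dehydrogenase Sdr9c7, the acylceramide genes Elovl4, Cers3, Pnpla1 and Abca12, and the transglutaminases Tgm1, Tgm3 and Tgm5. They were chosen by name, with earlier results of these data known. All 10 were found among the 24982 rows of the count matrix and among the 12310 genes that passed the filter on low counts. RNA was measured in 6 poly(A) libraries of sorted mouse back skin keratinocytes, 3 from the denervated left side and 3 from the normal right side of the same 3 animals, numbered 890, 892 and 899. All animals carried Lgr6-EGFP-Ires-CreERT2 and R26loxP-stop-loxP-tdTom, so that 20 µg of tamoxifen on postnatal day 42 switched on a red reporter, tdTomato, in cells expressing Lgr6 and in their descendants. Reporter-positive cells were stained for CD49f (Itga6), a basal integrin, and sorted 4 weeks after the surgery; the series also names GFP in the gate. On the denervated side the cutaneous nerves had been dissected out; on the normal side they were left in place, and the labels mention no sham dissection, so nerve loss cannot be told apart from the dissection itself or from the side of the body. Both sides shared the midline incision, the ketamine/xylazine anaesthesia and the Meloxicam given afterwards. The age and sex of the animals are not stated in the sources used here. In sorted bulk cells, more cells with a transcript and more transcript per cell cannot be told apart.

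As background, the water barrier of the skin is made as keratinocytes leave the basal layer and cornify. Elongases and ceramide synthases make ceramides with very long acyl chains, which are esterified with linoleate and carried to the cell surface in lamellar granules. Lipoxygenases and a dehydrogenase then oxidise the linoleate, which allows the ceramide to be bound covalently to proteins. Transglutaminases join those proteins to each other into the cornified envelope. Loss of several of these genes causes ichthyosis, a scaling skin disease, in humans.

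The transglutaminases are paralogs, and whether their reads can be told apart bears on the counts given for each. The coding sequence around the catalytic cysteine is shown because it is among the best kept stretches of the family. It was read from GENCODE transcripts of the mm10 build, 30 bases per gene, 5′ to 3′, with the cysteine codon in capitals.
Tgm1, exon 7, chr14:55709407-55709436, minus strand: ccctacggccaaTGCtgggtctttgccggt
Tgm3, exon 6, chr2:130029760-130029789, plus strand: caatttggccagTGCtgggtctttgctgga
Tgm5, exon 6, chr2:121070745-121070774, minus strand: cgctatgggcaaTGCtgggtctttgctgct
Over these 30 bases Tgm1 and Tgm5 were identical at 25, Tgm1 and Tgm3 at 23, and Tgm3 and Tgm5 at 23. The longest exact run shared by whole transcripts was 22 bases for Tgm1 and Tgm5, 16 bases for Tgm1 and Tgm3 and for Tgm3 and Tgm5, and 29 bases for Aloxe3 and Alox12b. No window of 50 bases of the longest coding transcript of 7 of the 10 genes occurred in another gene. In Pnpla1, 14.5% of the windows were shared, among others with the antisense gene Pnpla1os; in Tgm1 it was 4.78%, with Gm49067, which overlaps it on the opposite strand; in Abca12 it was 0.154%. Tgm5 and Tgm3 also overlap an opposite-strand gene, Gm14213 and Mir6339. The kit marked strand, but the strand setting of the counting is not given in the sources used here, so counts of Pnpla1, Tgm1, Tgm5 and Tgm3 are less certain than the others.

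The libraries held 9610071 to 14021730 counts on the denervated and 13801154 to 26167593 on the normal side. On the first principal component, with 36.5% of the variance, the denervated library of animal 890, also the one with the fewest counts, stood apart at −37.6, while the other 5 lay between −9.73 and 24.5. All 10 genes were detected in every library. Raw counts ran from 58 for Sdr9c7 in the denervated library of animal 890 to 6363 for Abca12 in the normal library of the same animal. In TPM, which allows genes to be compared since it corrects for length, the order of levels over all 6 libraries was Elovl4 with a mean of 78.8 TPM, Cers3 with 51.2, Abca12 with 48.2, Aloxe3 with 19.4, Alox12b with 11.4, Tgm1 with 11.2, Tgm5 with 8.48, Tgm3 with 8.25, Sdr9c7 with 6.32 and Pnpla1 with 3.87. Only at the step from Elovl4 to Cers3 and at the step from Abca12 to Aloxe3 did the ranges of neighbours over the 6 libraries not overlap. The acylceramide genes Elovl4, Cers3 and Abca12 therefore stood apart from the others, while Pnpla1 of the same pathway was the lowest of the 10. The ranges of the 3 transglutaminases overlapped.

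**Figure D1:**
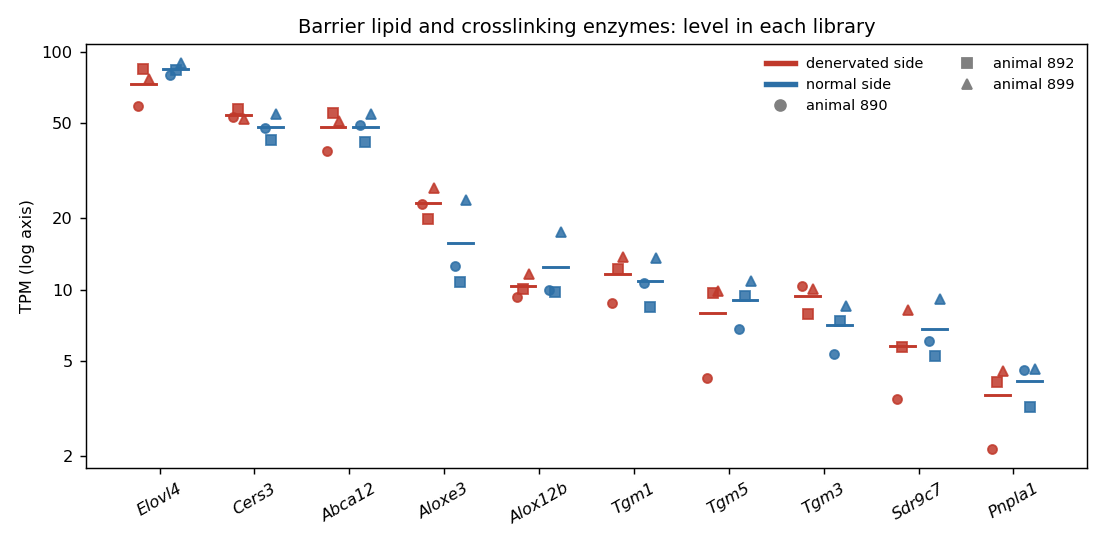
Level of each of the 10 genes in TPM (log axis), ordered by the mean over 6 libraries; each point is a library, its shape the animal, and the line the mean of 3 libraries of the denervated or the normal side. Elovl4, Cers3 and Abca12 lie above all others, and the normal library of animal 899 is the highest normal library for each of the 10 genes.

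With the sides of each animal compared, 1 of the 10 genes was called, Aloxe3, which rose on the denervated side; 9 were not called in either direction. Over all 12310 genes tested, 3.46% were called at an adjusted p below 0.05 (edgeR's quasi-likelihood test with the animal as block and Benjamini-Hochberg adjustment over all genes). The calls split into 355 upwards, or 2.88% of those tested, and 71 downwards, or 0.577%. With library totals in place of TMM scaling 2.36% were called, 172 higher and 118 lower, and none of the 10. DESeq2 with the animal in the design called 492 of all 12310 genes, or 4.0%, and, of the 10, Aloxe3. The 12310 include genes to which DESeq2 gave no adjusted p, among them Alox12b, Tgm1, Tgm3, Tgm5, Pnpla1 and Sdr9c7. The median log2 fold change of the 10 genes was −0.07, beside −0.02 over all genes tested; without animal 890 it was 0.14, beside −0.02. A total of 5 genes had a positive and 5 a negative estimate, where 5579 of all 12310 tested genes had a positive and 6731 a negative one. Only Aloxe3 and Tgm3 moved the same way in 3 of 3 animals, both upwards, where 19.3% of all tested genes went up and 21.4% down in 3 of 3 animals, 40.7% in all. The CPM of the sides overlapped for each of the 10, where they did not overlap for 19.0% of all tested genes (9.76% with the denervated side above, 9.21% with it below). Without the block, edgeR called 0 of 12310 genes, with 1537 at an unadjusted p below 0.05, and DESeq2 called 381.

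Aloxe3 encodes the epidermal lipoxygenase that isomerises the hydroperoxides made by the enzyme of Alox12b. It lies on chromosome 11 from 69125896 to 69149115 (plus strand, mm10), 7873 bases before Alox12b on the same strand. Aloxe3 stood at 42.6, 33.7 and 43.2 CPM (counts scaled to a common library size with TMM factors) in the denervated libraries of animals 890, 892 and 899, against 19.8, 19.3 and 40.9 CPM in the normal libraries. The denervated libraries were all high, while only the normal library of animal 899 was, so the sides overlapped at that library. The paired log2 fold change was 0.65 ± 0.15 SE, a 1.57-fold rise (95% interval 0.32 to 0.98, adjusted p = 0.0349). By animal, the log2 difference came to 1.10 (890), 0.80 (892) and 0.08 (899). Left to animals 890 and 892 the fold change was 0.96 on the log2 scale (adjusted p = 5.5e-05, edgeR). That fit called 976 of 12614 genes, more than the fit of all animals, and it leaves out the animal with the smallest difference. Left to animals 892 and 899 the log2 fold change of Aloxe3 was 0.43 (adjusted p = 0.0282, edgeR). Left to animals 890 and 899 it was 0.60 (adjusted p = 0.0150, edgeR), so the call held without each animal. The call was lost with library totals (log2 fold change 0.59, adjusted p = 0.0601), without the block (0.59, adjusted p = 0.393) and with limma on log2(TPM + 1) (0.60, adjusted p = 0.159). In the authors' deposited table the log2 fold change of Aloxe3 was 0.66 with an adjusted p of 0.0124, where 7.27% of the genes with an adjusted p passed.

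Alox12b, the lipoxygenase that acts first in this pair, stood at 12.9, 14.2 and 15 CPM in the denervated libraries of animals 890, 892 and 899, against 14.3, 13.7 and 23.8 CPM in the normal libraries. Only the normal library of animal 899 stood apart from the others, which lay close together. The paired log2 fold change was −0.26 ± 0.16 SE (95% interval −0.59 to 0.08, adjusted p = 0.414, edgeR), and it did not pass. With animal 899 left out it was −0.04.

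Since both enzymes act in sequence, their ratio within a library was compared, a step chosen after their values were seen. Aloxe3 over Alox12b in TPM was 2.46, 1.97 and 2.30 in the denervated libraries of animals 890, 892 and 899, against 1.26, 1.11 and 1.36 in the normal libraries. In each of the 3 animals the denervated side had the higher ratio, including animal 899, in which Aloxe3 itself differed little and Alox12b was lower, and the sides did not overlap. The mean was 2.24 ± 0.253 on the denervated and 1.24 ± 0.128 on the normal side (SD, n = 3 each; exact two-sided permutation test on the log scale, p = 0.1, the smallest that 3 against 3 libraries allow; 0.25 adjusted over 5 such ratios). That test takes the libraries as unpaired; with the animals as pairs, the exact two-sided sign-flip test gave p = 0.25, the smallest that 3 pairs allow. The ratio rests on the same Aloxe3 values and is no separate evidence of its rise.

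**Figure D2:**
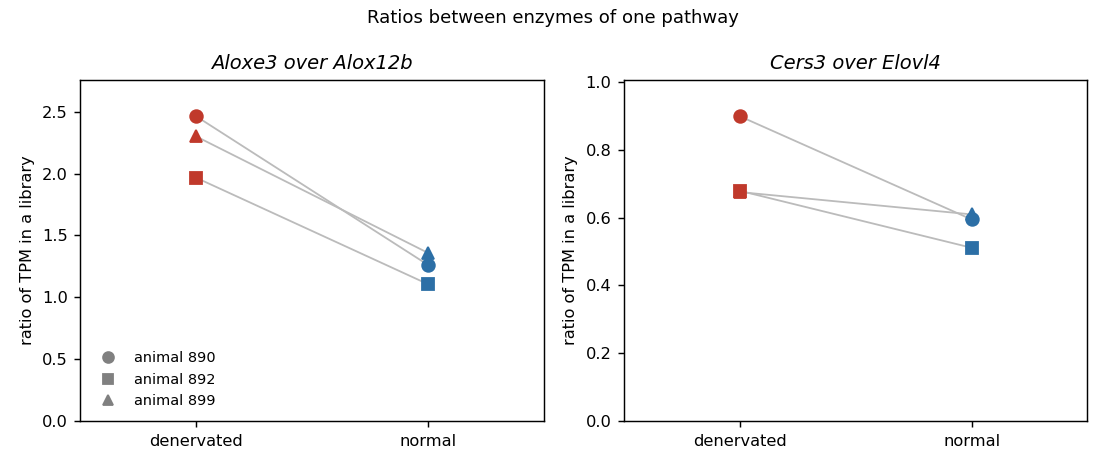
Ratio of Aloxe3 to Alox12b (left) and of Cers3 to Elovl4 (right) in TPM within each library; points are libraries, shapes and grey lines mark the animal. The denervated libraries lie at 1.97 to 2.46 and the normal libraries at 1.11 to 1.36 on the left, and on the right the denervated libraries lie at 0.676 to 0.899 and the normal libraries at 0.511 to 0.610.

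Sdr9c7, the dehydrogenase that follows the lipoxygenases, stood at 6.24, 9.16 and 12.4 CPM in the denervated libraries of animals 890, 892 and 899, against 9.21, 8.32 and 14.4 CPM in the normal libraries. Animal 899 was the highest on both sides, and the sides overlapped widely (log2 fold change −0.20 ± 0.18 SE, 95% interval −0.57 to 0.18, adjusted p = 0.596, edgeR). With animal 890 left out the estimate was −0.04. Of the other lipoxygenase genes, with Alox5ap and the epoxide hydrolase Ephx3, 5 of 7 were tested and none passed in either direction. Their median log2 fold change was −0.20. All 5 estimates were negative, beside 6731 of all 12310 tested genes. Closest were Alox12, the platelet-type lipoxygenase, at −0.45 ± 0.21 SE (adjusted p = 0.282, edgeR), and Alox12e, an epidermal relative present in the mouse, at −0.20 ± 0.10 SE (adjusted p = 0.335, edgeR). Animal 890 was the only animal in which Alox12e was higher on the denervated side. Without it the estimate of Alox12e was −0.39 (adjusted p = 0.00415, edgeR), in a fit that called 385 of 12369 genes. Alox8, the gene next to Alox12b, averaged 0.454 CPM on the denervated and 0.390 CPM on the normal side and did not pass the filter on low counts.

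**Figure D3:**
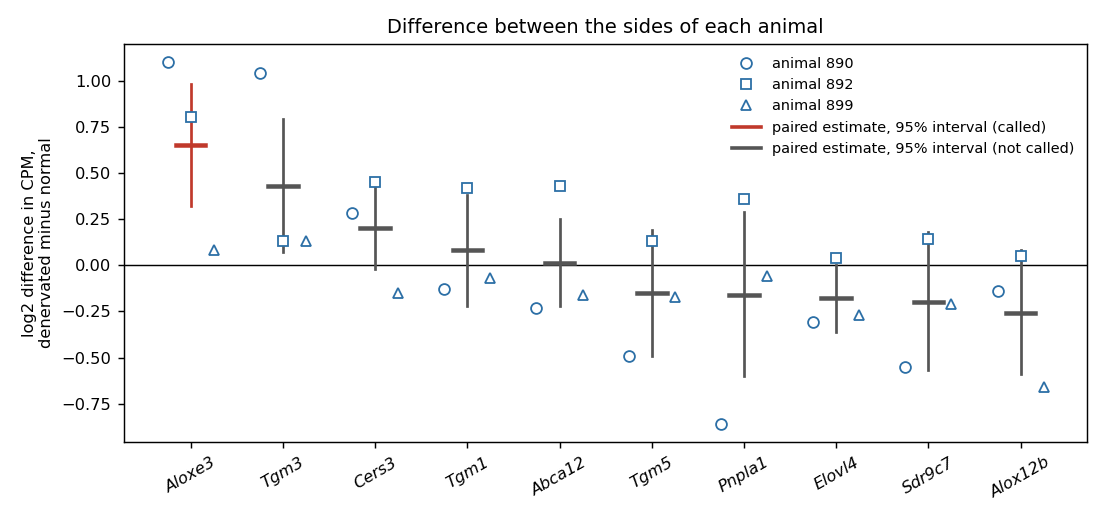
Log2 difference in CPM between the denervated and the normal side for each of the 10 genes; open symbols are the 3 animals, thick bars the paired edgeR estimate and vertical lines its 95% interval, unadjusted for the number of genes. Aloxe3 is the gene called (red, 0.65); Tgm3 comes next at 0.43, with 1.04 in animal 890 and 0.13 in each of the other 2 animals.

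Of the acylceramide genes, none of the 4 members passed. Elovl4, which elongates fatty acids to ultra-long chains, stood at 93.8, 130.8 and 112.1 CPM in the denervated libraries of animals 890, 892 and 899, against 116.5, 127.5 and 134.8 CPM in the normal libraries. Its denervated value was the lower one in animals 890 and 899, and the sides were close in animal 892. The estimate did not pass (log2 fold change −0.18 ± 0.08 SE, 95% interval −0.36 to 0.00, adjusted p = 0.284, edgeR). Cers3, the ceramide synthase that takes up these chains, stood at 99.1, 104 and 87.7 CPM in the denervated libraries, against 81.4, 75.9 and 97.4 CPM in the normal libraries. Its denervated value was the higher one in animals 890 and 892 and the lower one in animal 899 (log2 fold change 0.20 ± 0.10 SE, 95% interval −0.02 to 0.42, adjusted p = 0.330, edgeR). Without animal 899, the only animal with a lower denervated value, it was 0.37 and passed (adjusted p = 0.0151, edgeR). That fit called 976 of 12614 genes, more than the fit of all animals, and it leaves out the animal that went the other way.

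The estimates of Cers3 and Elovl4, consecutive steps of the same route, had opposite signs, but neither was called. By animal (890, 892 and 899), the log2 differences were 0.28, 0.45 and −0.15 for Cers3 and −0.31, 0.04 and −0.27 for Elovl4. The signs were opposite only in animal 890. The TPM ratio of Cers3 to Elovl4 was 0.899, 0.679 and 0.676 in the denervated libraries of animals 890, 892 and 899, against 0.595, 0.511 and 0.610 in the normal libraries. The denervated side had the higher ratio in each of the 3 animals and the sides did not overlap, with the denervated library of animal 890 well above the rest (exact two-sided permutation test, p = 0.1, the smallest possible; 0.25 adjusted over 5 ratios, chosen after the values were seen). With the animals as pairs the exact sign-flip test gave p = 0.25.

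Pnpla1, the transacylase that attaches linoleate, stood at 6.35, 11.2 and 11.5 CPM in the denervated libraries of animals 890, 892 and 899, against 11.65, 8.70 and 11.9 CPM in the normal libraries. Its denervated library of animal 890 was low, and the estimate changed sign with it: the log2 fold change was −0.16 ± 0.21 SE (adjusted p = 0.741, edgeR), and 0.16 without animal 890. Abca12, the transporter that loads ceramides into lamellar granules, stood at 203.1, 286.5 and 249.0 CPM in the denervated libraries, against 239, 212 and 278 CPM in the normal libraries. Its estimate lay near 0 (log2 fold change 0.01 ± 0.11 SE, 95% interval −0.22 to 0.25, adjusted p = 0.961, edgeR), and with library totals it was −0.05.

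Of 33 tested genes of the wider acylceramide route, outside the members, 1 fell, none rose and 32 were not called, with a median log2 fold change of −0.02. The one that fell was Acer1, the alkaline ceramidase of differentiating epidermis, at 32.2, 42.1 and 36.8 CPM in the denervated libraries of animals 890, 892 and 899, against 46.7, 50.03 and 48.3 CPM in the normal libraries. The sides did not overlap (log2 fold change −0.39 ± 0.09 SE, adjusted p = 0.0402, edgeR), but the call was lost with animal 890 left out (−0.32, adjusted p = 0.118, edgeR) or animal 892 left out (−0.45 and 0.0775).

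Of the transglutaminases, none of the 3 members passed. Tgm3, which is active in the upper epidermis and in the hair follicle, stood at 26.3, 19.7 and 23.6 CPM in the denervated libraries of animals 890, 892 and 899, against 12.7, 17.95 and 21.5 CPM in the normal libraries. It was higher in 3 of 3 animals, mostly through a low normal library and a high denervated library of animal 890. The log2 fold change was 0.43 ± 0.17 SE (95% interval 0.07 to 0.79, adjusted p = 0.180, edgeR), and 0.13 without animal 890. With no filter on low counts it passed (0.44, adjusted p = 0.0223, edgeR). Markers of the inner root sheath and hair, where Tgm3 is also used, were sparse: 4 of 15 were tested, none passed, Tchhl1, Krt34 and Krt85 were at 0 in every library, and their summed level ran from 21.7 to 37.7 CPM in denervated and from 23.1 to 29 CPM in normal libraries. By animal, that sum was 24.5 CPM on the denervated and 29 CPM on the normal side in 890. It was 37.7 CPM on the denervated and 26.2 CPM on the normal side in 892, and 21.7 CPM on the denervated and 23.1 CPM on the normal side in 899. The denervated side was thus the higher one in animal 892 and the lower one in animals 890 and 899, and the part of these cells in the values of Tgm3 was not tested. Krt25, a root sheath keratin, was at 0.47 ± 0.71 SE (−0.83 with animal 892 left out) and Tchh, trichohyalin, at −0.09 ± 0.14 SE (log2 fold changes, neither called).

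Tgm1, the membrane-bound transglutaminase of keratinocytes, stood at 14.96, 20.4 and 21.4 CPM in the denervated libraries of animals 890, 892 and 899, against 16.4, 15.3 and 22.5 CPM in the normal libraries. The sides overlapped over most of their range (log2 fold change 0.08 ± 0.14 SE, 95% interval −0.22 to 0.38, adjusted p = 0.813, edgeR), and without animal 892 the estimate was −0.08. Tgm5, whose loss causes peeling skin in humans, stood at 6.997, 15.4 and 14.2 CPM in the denervated libraries, against 9.84, 14.1 and 16.02 CPM in the normal libraries. Animal 890 was low on both sides and lowest on the denervated one (log2 fold change −0.15 ± 0.16 SE, 95% interval −0.49 to 0.19, adjusted p = 0.660, edgeR), and with animal 890 left out the estimate was −0.01.

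In the summed TPM of the 3 genes, Tgm3 made up 44.2%, 26.4% and 29.9% in the denervated libraries of animals 890, 892 and 899, against 23.4%, 29.3% and 25.9% in the normal libraries. Only the denervated library of animal 890 had more Tgm3 than Tgm1 (exact two-sided permutation test, p = 0.2; 0.25 adjusted over 5 ratios; exact sign-flip p = 0.5 over pairs). The share of Tgm1 averaged 39.8 ± 1.91% on the denervated and 40.4 ± 6.61% on the normal side (exact p = 0.8, also after adjustment) and that of Tgm5 26.7 ± 7.54% on the denervated and 33.4 ± 3.69% on the normal side (SD, n = 3 each; exact p = 0.2, 0.25 adjusted). In the whole transglutaminase list, which holds these 3 genes, 5 of 9 genes were tested and none passed. Tgm7, the neighbour of Tgm5, had the smallest p, at 26.3 ± 9.08 CPM on the denervated and 32.8 ± 7.98 CPM on the normal side (SD, n = 3 each; log2 fold change −0.34 ± 0.11 SE, adjusted p = 0.1097, edgeR).

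Single libraries stood out across the 10 genes. The normal library of animal 899 was the highest normal library for 10 of 10 genes, beside 38.5% of all tested genes. The normal library of animal 892 was the lowest normal one for 7 of 10, beside 33.8%. Among the denervated libraries, that of animal 890 was the lowest for 7 of 10, beside 35.5% of all tested genes. The exceptions in that library were Aloxe3, Cers3 and Tgm3, the 3 genes with the highest estimates. Of the 12 suprabasal markers, 8 were lowest in that same library and the normal library of animal 899 was the highest normal one for 6. The denervated library of animal 892 was the highest denervated one for 10 of the 12, beside 31.6% of all tested genes. The part of these library differences in the results was not tested.

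Across the 6 libraries the log2 CPM of pairs of the 10 genes had a median Pearson r of 0.54 over 45 pairs, with a range of −0.45 to 0.89, as a description of libraries that share 3 animals. Aloxe3 was closest to Tgm3 (r = 0.86) and Cers3 (0.78) and had r = 0.33 with its neighbour Alox12b. The highest values were 0.89 for Abca12 with Tgm1 and for Tgm5 with Elovl4, followed by 0.88 for Tgm1 with Sdr9c7, and the lowest was that of Tgm3 with Pnpla1. Among 9772 named genes with at least 5 CPM, those most like Aloxe3 over the 6 libraries were Mtmr1 (r = 0.997), Usp37 (0.994), Npat (0.991), Wac (0.990) and Pros1 (0.989). Those most like the mean of the 10 genes were Cep83 (0.989), Plxnb2 (0.987), Psmg1 (0.986), Ccdc88c (0.976) and Myo1d (0.970). These values describe 6 libraries of 3 animals, and none of these 10 genes was called.

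The proteins that transglutaminases join were mostly uncalled. Of 27 tested genes for envelope proteins, 1 rose, none fell and 26 were not called, with a median log2 fold change of 0.35, beside −0.02 over all genes, and of 0.11 without animal 890. The one that rose was Sprr1a, a small proline-rich envelope precursor, at 240, 184 and 180 CPM in the denervated libraries of animals 890, 892 and 899, against 134, 128 and 148 CPM in the normal libraries. The sides did not overlap (log2 fold change 0.55 ± 0.10 SE, adjusted p = 0.00977, edgeR), and the call held without each animal. The late cornified envelope genes of the Lce1 group were singled out after their values were seen. Estimates were positive in 10 of 10 tested Lce1 genes, from 0.35 to 1.64, beside 5579 of all 12310 tested genes. None of the Lce1 genes was called (adjusted p from 0.106 to 0.574, edgeR). They averaged 0.850 to 44.6 CPM, and they are close paralogs whose reads the counting could split. Sprr3 was at 0 in every library.

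Among 16 tested genes for proteases of the barrier, their inhibitors and the substrate Cdsn none passed in edgeR (median log2 fold change 0.07), with Ctsl, cathepsin L, at 0.20 ± 0.07 SE and Klk5, a desquamation kallikrein, at −0.36 ± 0.22 SE. Klk5 depended on the animals: it was 0.04 with animal 890 left out, and −0.75 with animal 892 left out, where it passed (adjusted p = 0.00849, edgeR). Animal 892 was the only animal in which Klk5 was higher on the denervated side. Of 21 tested transcription factors and receptors that govern barrier genes, 1 rose and 20 were not called (median −0.05). The one that rose was Prdm1, a repressor expressed in cells nearing cornification, at 28.2, 17.9 and 34.8 CPM in the denervated libraries of animals 890, 892 and 899, against 15.7, 11.9 and 29.2 CPM in the normal libraries. As with Aloxe3, animal 899 was high on both sides (log2 fold change 0.56 ± 0.13 SE, adjusted p = 0.0352, edgeR). That call was lost without animal 890 (0.41, adjusted p = 0.0989) and with library totals (0.50, adjusted p = 0.0650).

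Markers of the suprabasal layers, where barrier genes are used, had negative estimates. Of 12 tested suprabasal markers, 2 fell, none rose and 10 were not called, where 0.577% of all tested genes fell. All 12 estimates were negative, beside 6731 of all 12310 tested genes. The median log2 fold change of the 12 was −0.23 (−0.13 without animal 890). Krt78, a keratin of suprabasal cells, averaged 27.7 ± 4.72 CPM on the denervated and 38.7 ± 1.32 CPM on the normal side (SD, n = 3 each; log2 fold change −0.49 ± 0.11 SE, adjusted p = 0.0349, edgeR; without animal 890, −0.35 and 0.112). Skint5, a butyrophilin-like gene of keratinocytes, averaged 25.7 ± 8.47 CPM on the denervated and 38.6 ± 2.14 CPM on the normal side (SD, n = 3 each; log2 fold change −0.61 ± 0.15 SE, adjusted p = 0.0361, edgeR). The suprabasal markers summed to 9877 to 12680 CPM in denervated and 11990 to 12620 CPM in normal libraries. Of 9 basal markers none was called by edgeR, with Itgb1 (log2 fold change 0.37 ± 0.10 SE, adjusted p = 0.0679) and Itga6 (0.19 ± 0.09 SE), integrins of basal cells, closest. Itga6 (CD49f) was stained for in the sort and Lgr6, also on this list, drove the reporter. The gate therefore bears on both genes on both sides. Itgb1 passed in DESeq2 with the animal in the design (adjusted p = 0.00774), and in edgeR with animal 892 left out (0.44, adjusted p = 0.0411) or animal 899 left out (0.47, adjusted p = 0.00264). It did not pass in edgeR with animal 890 left out (0.20, adjusted p = 0.447) or with library totals (0.30, adjusted p = 0.111). By animal, its log2 difference was 0.70 (890), 0.24 (892) and 0.16 (899). The basal markers summed to 45930 to 52130 CPM in denervated and 47010 to 48850 CPM in normal libraries, and Krt5 and Krt14, the keratins of basal cells, were counted in every library.

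**Figure D4:**
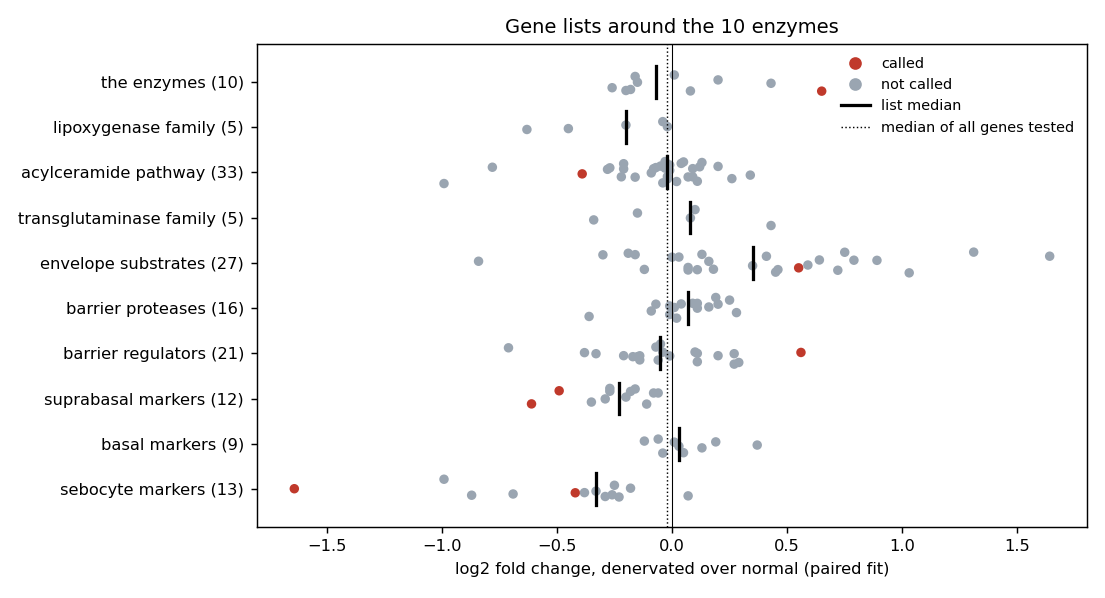
Log2 fold change (denervated over normal, paired edgeR fit) of each tested gene in the gene lists around the 10 enzymes, with the number tested in parentheses; red points were called at an adjusted p below 0.05, black bars are list medians and the dotted line is the median of all tested genes. The medians of the envelope genes (0.35) and of the suprabasal markers (−0.23) lie on opposite sides of the 10 enzymes (−0.07), but not without animal 890, where the medians are 0.11 for the envelope genes, −0.13 for the suprabasal markers and 0.14 for the 10 enzymes.

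Sebocytes make lipids of the skin surface. Of 13 tested sebocyte markers, 2 fell, none rose and 11 were not called, with a median log2 fold change of −0.33; Dgat2, a triglyceride synthase, was at −0.42 ± 0.09 SE and Scd3, a desaturase, at −1.64 ± 0.38 SE. The call of Scd3 was lost with animal 899 left out (−1.96, adjusted p = 0.051, edgeR). Raw counts of Scd3 were 1, 17 and 40 in the denervated libraries of animals 890, 892 and 899, against 50, 66 and 111 in the normal libraries. The value in the denervated library of animal 890 lies below the floor of 3 counts. The sebocyte markers summed to 1008 to 1072 CPM in denervated and 1034 to 1212 CPM in normal libraries. Langerhans and myeloid markers summed to 410 to 458 CPM in denervated and 339 to 420 CPM in normal libraries (11 of 12 tested, none called, with Cd74, the invariant chain of antigen presentation, at 0.28 and the adhesion gene Epcam at 0.18). Epcam alone stood at 207 to 241 CPM in denervated and 188 to 216 CPM in normal libraries, a large part of these sums. Cd74 passed in edgeR with animal 890 left out (0.34, adjusted p = 0.0381) or animal 899 left out (0.41, adjusted p = 0.0303), and was 0.10 with animal 892 left out (adjusted p = 0.864). Fibroblast markers summed to 26.6 to 43.6 CPM in denervated and 27.7 to 46.4 CPM in normal libraries (2 of 8 tested, none called, Col1a2 at −1.11 and Col6a1 at 0.04, both collagen genes; Lum at 0). Melanocyte markers summed to 14.0 to 26.3 CPM in denervated and 17.9 to 22.5 CPM in normal libraries (3 of 8 tested, none called, with the pigment enzyme gene Dct at 0.38 and the receptor gene Kit at 0.22; Mlana at 0). The part of these cell types in the values of the 10 enzymes was not tested. Elovl3 and Pparg of the sebocyte list, Padi3 of the hair list and Trp63 of the basal list also stand in the barrier lists.

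In RefSeq promoters of the GRCm38.p6 build, from 250 bases before to 50 after the start site, 9 of the 10 genes had an entry, all but Aloxe3. None of those 9 held the AP-1 motif TGANTCA or the Grhl motif AACCGGTT on either strand, so no matches overlapped. Of all 32851 promoters of that length 7.81% held the AP-1 and 0.146% the Grhl motif. On mm10, Abca12 lies on chromosome 1 from 71242276 to 71414910 (minus strand) and Cers3 on chromosome 7 from 66743504 to 66823691 (plus strand). Elovl4 lies on chromosome 9 from 83778692 to 83806277 (minus strand), Pnpla1 on chromosome 17 from 28858411 to 28890309 (plus strand) and Sdr9c7 on chromosome 10 from 127898518 to 127911761 (plus strand). Tgm5, from 121046111 to 121085841 (minus strand), and Tgm3, from 130012349 to 130050399 (plus strand), share chromosome 2, and Tgm1 lies on chromosome 14 from 55700009 to 55713926 (minus strand). The nearest gene on the other side of Aloxe3 is Hes7, 1840 bases away, which averaged 0.00 CPM on the denervated and 0.0376 CPM on the normal side. Of the neighbours of the 10 genes on either side that were tested, Aloxe3 beside Alox12b was the only one called.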

How the data were processed

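Gene expression was measured in 6 libraries, 3 denervated and 3 normal. Per the submitters' processing notes, STAR 2.6.1a, Salmon 0.11.2 and mm10 were used, with no roles stated; the sources used here do not give the count tool, its annotation or its strand setting. Raw counts per gene make up the deposited matrix, with 9610071 to 26167593 per library and a floor of 3 counts at 0.115 to 0.312 CPM, for counting error only. The deposited per-sample files hold, per the file headers, estimated counts, TPM and gene lengths, and a deposited table holds TPM of all libraries. The authors also deposited their own comparison, with log2 fold changes, a test score, p-values and the mean normalised signal of each gene.

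EdgeR 4.0.16 (R 4.3.3) was run on the counts with TMM factors, filterByExpr (minimum count 10, minimum total 15) and the animal as block. The labels' protocols say that each mouse gave both sides; deviations from the group means correlated at 0.356, 0.361 and 0.443 within animals and from −0.278 to −0.0407 between them. Standard errors were computed by dividing each estimate's size by the root of its F statistic, and 95% intervals are per gene and unadjusted. The test was run on simulated counts in which the side difference was the same in every animal. That check therefore does not cover genes whose side difference varies between animals, as that of Aloxe3 does. Calls are at an adjusted p below 0.05. As alternatives, DESeq2 1.42.0 was run on the counts and limma 3.58.1 on log2(TPM + 1), a scale that understates changes of low genes. P-values of the blocked edgeR fit rest on 3 animals and on a spread partly borrowed from the other genes. They therefore do not measure the spread of a gene's own differences over the 3 animals alone. The members and lists were chosen with earlier results of these data known. From each list the text names up to 4 called genes or the 2 with the smallest p. Coordinates and neighbours come from GENCODE for mm10.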

Additional observations from a re-analysis of the deposited data

How the results depend on the processing

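With the animal as block, 426 genes and 1 of the 10 members were called. Over the settings that kept counts, a filter, the block and all animals, the number of genes called stayed within 1.5 times of that, from 290 to 492. With no filter on low counts 987 genes and 2 members (Aloxe3 and Tgm3) were called. Without the replicate block 0 genes and 0 members were called in edgeR (1537 genes and 1 member at an unadjusted p below 0.05), and 381 genes and 0 members in DESeq2 without it, a setting chosen after seeing the data. Limma with the replicate block called 1 gene, which was lower, and 0 members with a pseudocount of 1, with 0.1 and with no filter on low TPM. With library totals 0 members were called. Leaving out 1 animal gave 248 to 976 genes and 1 to 2 members; the low value is without animal 892 and the high one without animal 899. The log2 fold change of Aloxe3 was between 0.43 and 0.96 over all settings. The sign of Abca12 changed with library totals (−0.0478), with limma (−0.0201 with a pseudocount of 1, −0.0207 with 0.1 and −0.0201 with no filter) and without animal 892. With 1 animal left out it ranged between −0.1808 and 0.1375 for Abca12, between −0.083 and 0.1743 for Tgm1 (negative without animal 892) and between −0.423 and 0.1563 for Pnpla1 (positive without animal 890); the cause was not tested. DESeq2 gave no adjusted p for Alox12b, Tgm1, Tgm3, Tgm5, Pnpla1 and Sdr9c7.

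The lowest counts behind a member (58 to 65 in the denervated library of animal 890 for Sdr9c7, Pnpla1 and Tgm5) limit the precision of those 3 genes. A single library left out of the blocked fit leaves its animal without a pair, so whole animals were left out.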
